A study of Homo sapiens with 6 samples.

Results

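The genes described here are 10 transcripts of the CDKN2A locus on chromosome band 9p21 and of the G1 cyclin axis that the locus restrains: CDKN2A, CDKN2B, the noncoding RNAs CDKN2A-DT and CDKN2B-AS1, the neighbouring gene MTAP, the D-type cyclin genes CCND1 and CCND3, the kinase genes CDK4 and CDK6, and RB1. They were found by pairing the Ensembl identifiers of a gene expression table with symbols, and all 10 were among its 61895 rows. All 10 also had a mean of at least 1 TPM (a share of each library's transcripts, corrected for transcript length), as did 14874 rows in all. They were chosen with the comparison of the groups already known, so their differences between groups are given as a description, with no test.

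CDKN2A encodes p16INK4a, an inhibitor that binds CDK4 and CDK6, and from a second upstream promoter and another reading frame it encodes p14ARF, which holds back the ubiquitin ligase MDM2. CDKN2B encodes the related inhibitor p15INK4b. Free of these inhibitors, CDK4 and CDK6 join D-type cyclins and phosphorylate the retinoblastoma protein RB1, which then releases E2F transcription factors and lets cells pass from G1 into S phase. CDKN2B-AS1, also called ANRIL, is a long antisense RNA of the locus, and MTAP encodes an enzyme that salvages methionine from methylthioadenosine and is often lost together with CDKN2A in tumours.

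RNA came from 6 libraries labelled PC3, an established human prostate cancer cell line that grows without androgen. All were made from stably selected cells that had received a lentivirus. In 3 libraries (shCTSZ) it carried a short hairpin against CTSZ, the gene of the lysosomal protease cathepsin Z, and 3 libraries (shControl, genotype NC) came from control vector cells. The design text asks how CTSZ acts on cytokine secretion. Neither separate cultures nor the number of hairpins is stated in the labels, which also name 2 alternative media with serum without saying which library had which. The p-values therefore reflect the spread among these 6 libraries alone, which may be technical, and in bulk RNA fewer cells of a kind and less RNA per cell cannot be told apart.

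CTSZ stood at 90.6 to 94.7 TPM in shControl and 18.3 to 21.7 TPM in shCTSZ. The libraries listed 23679 to 24714 genes above 0, and TPM keeps no read totals, so their depth is unknown and counting error cannot be given. Mitochondrially encoded genes held 5.10% to 5.38% of TPM in shControl and 6.24% to 6.38% in shCTSZ. Of the genes checked against the label, KRT8, KRT18 and VIM were abundant (summed with EPCAM, 6005.5 to 6199.3 TPM in shControl and 7800.0 to 8002.7 TPM in shCTSZ) and KLK3, the gene of prostate-specific antigen, was listed at 0 in all 6. KRT8 and KRT18 rose with the group, KRT8 from 1255.7 ± 5.4 to 2303.8 ± 98 TPM, and the part of this shift in other results was not tested. EPCAM, an epithelial surface gene, was at 0.15 ± 0.096 TPM in shControl and 0.0967 ± 0.0058 TPM in shCTSZ. EPCAM, listed among the genes that should mark the line, was thus near 0 in both groups, and the cells are therefore called the libraries labelled PC3. Leukocyte markers summed to 0.50 to 1.17 TPM in shControl and 0.52 to 0.74 TPM in shCTSZ, endothelial markers to 1.24 to 1.75 and 1.61 to 2.32 TPM, and fibroblast markers to 1.40 to 1.73 and 0.48 to 0.82 TPM, with KDR, DCN and LUM at 0 in all 6.

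The start sites of the inhibitors and of ANRIL are shown first, because one gene of the locus uses 2 of them and the table does not separate their products. The windows are from RefSeq on GRCh38.p14, read in the direction of each gene from 250 bases before to 50 bases after a start, with capitals at GC boxes (GGGCGG on either strand), the sites bound by SP1.
CDKN2A, upstream start (p14ARF), chr9:21995275-21995574, minus strand: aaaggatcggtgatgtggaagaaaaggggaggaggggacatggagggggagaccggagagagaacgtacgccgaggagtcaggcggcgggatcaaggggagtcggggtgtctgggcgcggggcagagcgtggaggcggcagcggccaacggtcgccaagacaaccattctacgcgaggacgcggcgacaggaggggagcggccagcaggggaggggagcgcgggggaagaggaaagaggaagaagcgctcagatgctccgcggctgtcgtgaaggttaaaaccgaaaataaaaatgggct
CDKN2A, downstream start (p16INK4a), chr9:21974808-21975107, minus strand: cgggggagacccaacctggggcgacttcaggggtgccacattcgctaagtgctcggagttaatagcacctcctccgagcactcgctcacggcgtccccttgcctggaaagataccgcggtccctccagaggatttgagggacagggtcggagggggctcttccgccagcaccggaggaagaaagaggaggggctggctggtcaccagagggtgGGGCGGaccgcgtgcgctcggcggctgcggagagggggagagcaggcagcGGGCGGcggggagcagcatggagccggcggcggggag
CDKN2B-AS1, chr9:21994541-21994840, plus strand: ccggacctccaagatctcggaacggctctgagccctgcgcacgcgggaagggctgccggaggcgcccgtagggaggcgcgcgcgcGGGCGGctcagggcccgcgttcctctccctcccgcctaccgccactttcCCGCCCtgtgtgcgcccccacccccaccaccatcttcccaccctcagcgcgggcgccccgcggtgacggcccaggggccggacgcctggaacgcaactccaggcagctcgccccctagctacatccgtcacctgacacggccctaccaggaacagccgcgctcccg
CDKN2B, chr9:22009256-22009555, minus strand: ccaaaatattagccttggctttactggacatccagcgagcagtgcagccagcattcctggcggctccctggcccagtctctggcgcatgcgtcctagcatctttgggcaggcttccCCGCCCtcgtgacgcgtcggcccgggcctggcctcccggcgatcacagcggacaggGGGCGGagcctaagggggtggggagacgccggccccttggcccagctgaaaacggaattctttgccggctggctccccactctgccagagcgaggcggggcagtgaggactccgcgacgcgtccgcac
These 4 windows hold 63.3%, 69.0%, 74.0% and 67.3% G and C in that order and 28, 26, 36 and 25 CpG pairs, against medians of 58.7% and 14 over all 35116 windows. GC boxes number 0, 2, 2 and 2, and 45.0% of all windows hold at least 1. The E2F letters TTTNGCG, the AP-1 letters TGANTCA and the E-box CACGTG, searched on both strands, are in none of the 4, and are in 5.1%, 7.7% and 7.3% of all windows. Windows of 8 of the 10 members were found, 12 in all. None of the 12 holds TTTNGCG, and the E-box letters are in the CDK4 window and in 1 of 2 CDK6 windows. The RB1 window belongs to a start inside the gene, 172724 bases from its first annotated base, and was not read further.

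CDKN2A-DT (ENSG00000224854), whose name calls it a divergent transcript of CDKN2A, was the member with the largest difference between groups. GENCODE 29 (GRCh38) places it on chromosome 9 from 21966929 to 21967751 on the plus strand, as 1 transcript of 823 bases. CDKN2A (ENSG00000147889) occupies 21967753 to 21995301 on the minus strand, so the RNAs point at each other tail to tail with 1 base between their annotated ends, and the upstream start of CDKN2A lies 27.6 kb away. The last 100 bases of CDKN2A-DT, the end that meets CDKN2A, are shown with the letters of the polyadenylation hexamer AATAAA in capitals.
CDKN2A-DT, chr9:21967652-21967751, plus strand: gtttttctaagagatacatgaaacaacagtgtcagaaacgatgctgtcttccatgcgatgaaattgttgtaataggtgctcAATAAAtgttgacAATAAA
Both copies of the hexamer in the transcript lie in this stretch. Whether reads were assigned by strand is not given in the sources used here, so reads that run past the end of either gene cannot be told apart from reads of the other. All 823 bases of CDKN2A-DT, and 135016 bases of MTAP, also overlap ENSG00000264545, a protein-coding gene annotated on the same strand. That gene was at 0.55 TPM in shControl and 0.64 TPM in shCTSZ on average.

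CDKN2A-DT was measured at 19.2, 16.3 and 15.2 TPM in shControl and at 2.26, 2.30 and 3.05 TPM in shCTSZ. All 3 shCTSZ libraries were far below all 3 shControl libraries. The means were 16.9 ± 2.0 and 2.54 ± 0.45 TPM (SD, n = 3 each), which leaves 15.0% of the control level, and the difference in log2(TPM + 1) was -2.34. Of 14874 genes ranked by that difference it was the 39th lowest. The adjacent gene went the other way. CDKN2A was measured at 98.7, 99.8 and 106.9 TPM in shControl and at 128.8, 124.3 and 125.7 TPM in shCTSZ, with the groups apart. Its means were 102 ± 4.4 and 126 ± 2.3 TPM, a log2 difference of 0.31, and they sum over transcripts of p16INK4a and p14ARF. The ratio of CDKN2A to CDKN2A-DT was accordingly 5.16, 6.12 and 7.03 in the shControl libraries and 57.0, 54.1 and 41.2 in the shCTSZ libraries.

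CDKN2B (ENSG00000147883, chromosome 9, 22002903 to 22009363, minus strand) was a minor transcript of the locus. It stood at 3.88, 5.26 and 6.25 TPM in shControl and 3.09, 4.48 and 3.75 TPM in shCTSZ. The groups overlapped, and the log2 difference was -0.35. On leaving out 1 library it ran from -0.22 without shControl replicate 3 to -0.51 without shControl replicate 1, and it was -0.20 at a pseudocount of 5. Without shControl replicate 1, or without shCTSZ replicate 2, the groups did not overlap. CDKN2B-AS1 (ENSG00000240498, 21994778 to 22121097, plus strand), which spans all of CDKN2B on the other strand and overlaps the first 524 bases of CDKN2A, was measured at 2.31, 1.55 and 1.99 TPM in shControl and 2.39, 1.81 and 2.10 TPM in shCTSZ. Its groups overlapped too, with a log2 difference of 0.08 that was -0.03 without shControl replicate 2. CDKN2A thus exceeded CDKN2B 17.1- to 25.4-fold in shControl libraries and 27.8- to 41.7-fold in shCTSZ libraries, with TPM already corrected for length.

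MTAP (ENSG00000099810, 21802543 to 21937651, plus strand) was measured at 16.4, 13.5 and 13.3 TPM in shControl and at 16.8, 21.1 and 20.3 TPM in shCTSZ. The lowest shCTSZ library lay just above the highest shControl library. The means were 14.4 ± 1.7 and 19.4 ± 2.3 TPM, a log2 difference of 0.41. MTAP and CDKN2A, which are often lost together in tumours, were thus both measured above 10 TPM in all 6 libraries.

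**Figure D1:**
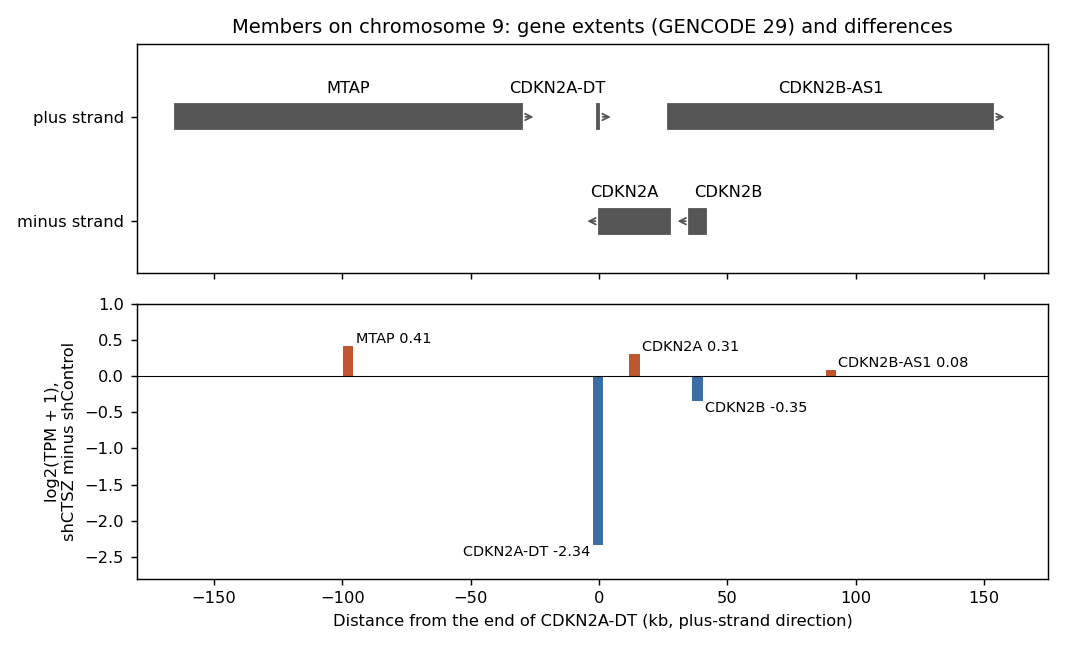
Members on chromosome 9. The upper panel draws gene extents by strand against the distance in kb from the end of CDKN2A-DT, with arrows in the direction of transcription, and the lower panel gives the difference of group means in log2(TPM + 1), shCTSZ minus shControl (n = 3 each), at the middle of each gene. CDKN2A-DT (-2.34) meets the end of CDKN2A (0.31) and goes the other way.

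Of 55 other annotated genes within 1 Mb of these members (positions 20802543 to 23121097), 34 were listed at 0 in all 6 libraries and 15 more had a mean under 1 TPM. Of the 6 that were tested across the whole table, 2 rose and none fell. In that fit (limma with Benjamini-Hochberg adjustment over 14874 genes at 0.05), 19.8% of all genes rose and 14.7% fell. MIR31HG, the host of a microRNA, rose from 7.53 ± 0.50 to 11.1 ± 0.33 TPM (log2 difference 0.51, SE 0.076, adjusted p = 0.00321). KLHL9, an adaptor of a ubiquitin ligase, rose from 6.68 ± 0.71 to 9.27 ± 0.70 TPM (0.42, SE 0.10, adjusted p = 0.0174), and its adjusted p was 0.0674 and 0.0683 without shCTSZ replicate 1 or 2 and 0.12 after a correction for GC content and length within each library (0.0155 to 0.12 over its alternatives). IFNB1, the interferon beta gene, was at 2.55 ± 0.60 and 1.47 ± 0.30 TPM and did not pass (-0.52, adjusted p = 0.0688), though it did without a mean-variance trend (0.0494) and after the GC and length correction (0.0339; 0.0339 to 0.175 over its alternatives). FOCAD was at 19.7 ± 0.30 and 20.3 ± 2.0 TPM (adjusted p = 0.719). The pseudogene UBA52P6 (adjusted p = 0.877) and a small RNA listed in 1 shControl library alone (9.56 TPM, adjusted p = 0.355) did not pass. With limma, the one tool run, 1 of these 6 genes was lower at an unadjusted p under 0.05.

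The D-type cyclins differed from one another. CCND1 (ENSG00000110092, chromosome 11, 69641087 to 69654474), which encodes cyclin D1, was the most abundant member, at 212.6, 205.0 and 200.4 TPM in shControl and 244.1, 241.7 and 263.5 TPM in shCTSZ. All shCTSZ libraries were above all shControl libraries, and the means of 206 ± 6.2 and 249.8 ± 12 TPM gave a log2 difference of 0.28. CCND3 (ENSG00000112576, chromosome 6, 41934933 to 42050357), the gene of cyclin D3, was measured at 47.7, 47.0 and 42.2 TPM in shControl and 40.0, 39.0 and 40.3 TPM in shCTSZ. Its groups were apart in the other direction by a small margin, with means of 45.6 ± 3.0 and 39.8 ± 0.66 TPM and a log2 difference of -0.19. After the GC and length correction the difference was 0.49 for CCND1 and -0.03 for CCND3, whose groups then overlapped. CCND1 overlaps LTO1 on the other strand by 1399 bases, and LTO1 was at 52.8 TPM in shControl and 44.8 TPM in shCTSZ on average.

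CCND2, the remaining D-type cyclin gene and no member, was at 37.2 ± 2.7 and 33.5 ± 0.76 TPM and did not pass (limma adjusted p = 0.112). Summed over the 3 genes, D-type cyclin transcripts came to 301, 288 and 278 TPM in shControl and 317, 315 and 338 TPM in shCTSZ. CCND1 supplied 71.3% ± 0.74 of them in shControl and 77.3% ± 0.63 in shCTSZ.

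CDK6 (ENSG00000105810, chromosome 7, 92604921 to 92836594, minus strand) had the largest difference among the members outside chromosome 9. It stood at 12.5, 11.8 and 10.2 TPM in shControl and at 17.2, 17.2 and 16.7 TPM in shCTSZ, with the groups well apart. The means were 11.5 ± 1.2 and 17 ± 0.27 TPM, a log2 difference of 0.53. CDK4 (ENSG00000135446, chromosome 12, 57747727 to 57756013, minus strand), the related kinase, was measured at 192.2, 184.7 and 187.1 TPM in shControl and 199.1, 190.2 and 189.8 TPM in shCTSZ. Its groups overlapped at means of 188 ± 3.8 and 193 ± 5.3 TPM (log2 difference 0.04), and did not overlap without shControl replicate 1. CDK4 overlaps TSPAN31 and MARCHF9 on the other strand, at 15.0 and 17.1 TPM in shControl. CDK4 remained the major kinase, at 15.4, 15.7 and 18.3 times CDK6 in shControl and 11.6, 11.1 and 11.4 times in shCTSZ, so CDK6 supplied 5.76% ± 0.50 and 8.10% ± 0.16 of their sum.

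RB1 (ENSG00000139687, chromosome 13, 48303726 to 48599436, plus strand), the substrate, was measured at 16.8, 14.4 and 12.4 TPM in shControl and at 17.3, 19.3 and 18.6 TPM in shCTSZ. The groups were apart by a narrow gap, and the means of 14.5 ± 2.2 and 18.4 ± 1.0 TPM gave a log2 difference of 0.33. The INK4 genes as a whole (CDKN2A, CDKN2B, CDKN2C and CDKN2D) summed to 159 ± 5.7 TPM in shControl and 167 ± 2.4 TPM in shCTSZ. That was 0.756, 0.803 and 0.840 times the sum of CDK4 and CDK6 in shControl and 0.782, 0.792 and 0.808 times in shCTSZ, so this ratio overlapped between groups. Within the INK4 sum, CDKN2A made up 63.8% ± 0.62 in shControl and 75.7% ± 0.40 in shCTSZ. CDKN2A TPM also counts transcripts of p14ARF, so the sum, the ratio and this share are not of INK4 inhibitor transcripts alone.

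**Figure D2:**
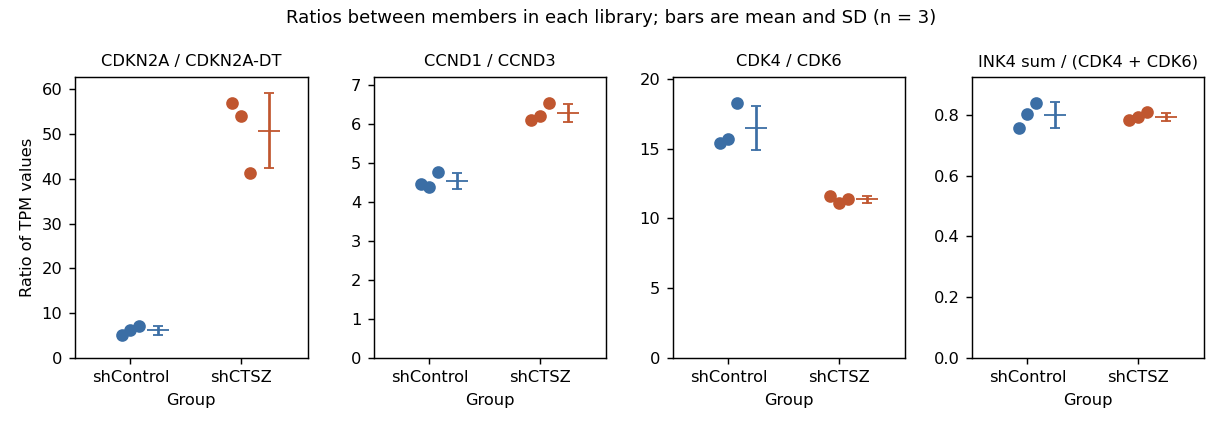
Ratios of TPM values in each library (points) with the mean and SD of each group (n = 3). The INK4 sum is that of CDKN2A, CDKN2B, CDKN2C and CDKN2D, with p14ARF transcripts of CDKN2A included. CDKN2A over CDKN2A-DT was 5.16 to 7.03 in shControl and 41.2 to 57.0 in shCTSZ, CCND1 over CCND3 was 4.37 to 4.76 and 6.10 to 6.54, CDK4 over CDK6 was 15.4 to 18.3 and 11.1 to 11.6, and the INK4 sum over CDK4 plus CDK6 overlapped between groups.

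Within shControl the order of mean levels was CCND1, CDK4, CDKN2A, CCND3, CDKN2A-DT, RB1, MTAP, CDK6, CDKN2B and CDKN2B-AS1. CDKN2A-DT overlapped RB1 and RB1 overlapped MTAP, while every other neighbour in the order was clear of the next in all 3 libraries. In shCTSZ the first 4 places were the same, followed by MTAP, RB1, CDK6, CDKN2B, CDKN2A-DT and CDKN2B-AS1, with MTAP overlapping RB1 and CDKN2A-DT overlapping CDKN2B-AS1. Of the 10 members, 5 were higher in all shCTSZ libraries than in any shControl library (CDKN2A, MTAP, CCND1, CDK6 and RB1), as were 29.1% of all genes tested. Another 2 were lower without overlap (CDKN2A-DT and CCND3), as were 21.2% of all genes, and 3 overlapped. In the fit across all genes, 6 of the 10 were past the threshold, 4 higher and 2 lower, where 34.5% of all genes were. The lower count was 1 without any 1 library other than shControl replicate 3. Since the members were picked on this contrast, nothing is read from these counts. The median log2 difference was 0.18 over the members and 0.04 over all genes.

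**Figure D3:**
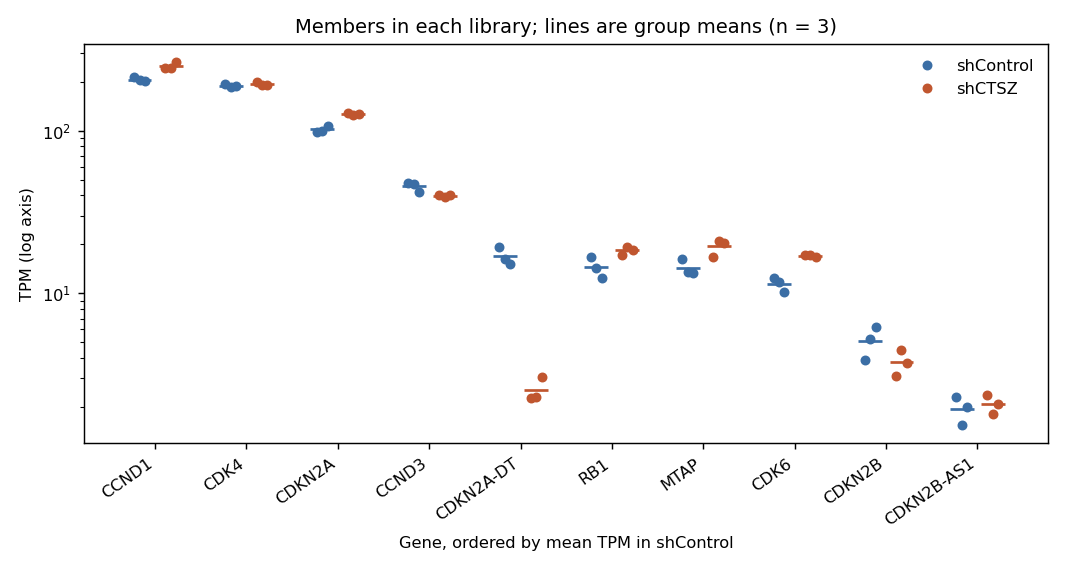
TPM of the 10 members (log axis) in each of 3 shControl and 3 shCTSZ libraries, ordered by the shControl mean, with lines at group means. CDKN2A-DT lies at 15.2 to 19.2 TPM in shControl and at 2.26 to 3.05 TPM in shCTSZ, while the differences of the other members are small beside the range of levels.

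The genes with profiles most like that of CDKN2A-DT over the 6 libraries were sought by the root mean square distance of centred log2(TPM + 1) values, a measure that mostly follows the difference between groups. The nearest were ENSG00000289609, which has no symbol (338 ± 27 and 67.1 ± 6.5 TPM, distance 0.0379), and the assembled transcript MSTRG.12958 (30.3 ± 1.7 and 4.86 ± 0.50 TPM, 0.0742). A processed pseudogene on chromosome 18, ENSG00000265639 (14.8 ± 2.6 and 2.43 ± 0.47 TPM, 0.0922), and ART3, a gene of the ADP-ribosyltransferase family (21.8 ± 4.4 and 3.18 ± 0.43 TPM, 0.0932), came next. Nearest to CDKN2A were ATP6V0E2, a subunit gene of the vacuolar proton pump (58.0 ± 2.7 and 71.3 ± 1.2 TPM, 0.0172), TFPT (68.9 ± 3.2 and 83.8 ± 1.9 TPM, 0.0179), the unnamed coding gene ENSG00000256646 (17.8 ± 0.80 and 22.1 ± 0.54 TPM, 0.0203) and PECR (25.4 ± 0.75 and 31.0 ± 0.73 TPM, 0.0239). The annotation has no entry for ENSG00000289609 and MSTRG.12958, so their positions are not known here. None of the others lies on chromosome 9.

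Genes of the pathway that are no members were tested through 9 lists taken from textbook knowledge, with p-values adjusted over the whole table. Of 126 tested genes 42 rose and 22 fell, which is 33.3% and 17.5%, beside 19.8% and 14.7% of all genes. Their median log2 difference was 0.10, and 0.04 over all genes.

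Other CDK inhibitors were lower or did not pass. Of 6 tested, 4 fell and none rose in the limma fit (median log2 difference -0.26), nor was any higher at an unadjusted p under 0.05. CDKN2D, the gene of p19INK4d, fell from 36.0 ± 0.98 to 23.0 ± 1.1 TPM (log2 difference -0.63, limma adjusted p = 0.000486). CDKN1A, the gene of p21, fell from 394 ± 8.5 to 324 ± 6.1 TPM (-0.28, adjusted p = 0.000949). CDKN2C, the gene of p18INK4c, fell from 16.5 ± 0.73 to 13.7 ± 0.35 TPM (-0.25, adjusted p = 0.0193). On leaving out shControl replicate 1, shControl replicate 3, shCTSZ replicate 2 or shCTSZ replicate 3, the p of CDKN2C was 0.0546 to 0.065 (0.00943 to 0.065 over its alternatives). The count of falls was 2 without shControl replicate 1 or 3 or shCTSZ replicate 2. CDKN1B, the gene of p27, was at 26.4 ± 1.2 and 24.3 ± 2.6 TPM and did not pass (adjusted p = 0.304).

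Cyclins and kinases further along moved both ways, with 4 of 14 rising and 5 falling (median 0.04). CCNE1, the gene of cyclin E1 and itself an E2F target, rose from 9.78 ± 1.4 to 14.7 ± 0.54 TPM (0.55, limma adjusted p = 0.00681). PKMYT1, a kinase that restrains CDK1, fell from 148 ± 1.9 to 117 ± 8.5 TPM (-0.34, adjusted p = 0.00432). MNAT1, an assembly factor of the CDK-activating kinase, fell from 57.7 ± 5.3 to 44.7 ± 1.1 TPM (-0.36, adjusted p = 0.00871). Its partners CDK7 and CCNH fell as well, to 68.5 ± 4.4 and 67.6 ± 2.3 TPM, and were named after their values were seen. The rises numbered 2 without shCTSZ replicate 2, and the falls numbered 3 without shControl replicate 2 or shCTSZ replicate 1 or 3 and 3 with no mean-variance trend.

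Pocket proteins and E2F factors were mostly higher, with 7 of 12 rising and 1 falling (median 0.26). E2F1 rose from 37.0 ± 1.2 to 51.5 ± 1.0 TPM (0.47, limma adjusted p = 0.000722). TFDP1, the dimer partner of E2F proteins, rose from 44.0 ± 1.1 to 56.8 ± 1.8 TPM (0.36, adjusted p = 0.00173). RBL2, the gene of the RB1 relative p130, rose from 11.9 ± 0.17 to 16.9 ± 1.2 TPM (0.47, adjusted p = 0.00275). The rises numbered 4 without shControl replicate 2 or shCTSZ replicate 2. The single fall, TFDP2 (29.4 ± 3.7 to 23.7 ± 1.2 TPM), was named after its value was seen. The count of falls was 0 without shControl replicate 1 or 2, without any 1 shCTSZ replicate, at a pseudocount of 5, with no filter, without mitochondrially encoded genes and without a mean-variance trend.

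E2F targets of the G1 to S step rose in 11 of 20 cases and fell in 1 (median 0.15). The helicase subunit genes MCM5 (31.3 ± 1.7 to 50.3 ± 2.9 TPM, log2 difference 0.67, limma adjusted p = 0.000625) and MCM3 (61.9 ± 2.8 to 98.2 ± 7.9 TPM, 0.65, adjusted p = 0.000816) rose. Other targets of the list did not pass, such as CDC6 (43.7 ± 0.62 and 46.4 ± 1.6 TPM, adjusted p = 0.182) and MYBL2 (151 ± 4.7 and 138 ± 6.1 TPM, adjusted p = 0.0585), both named after their values were seen. The gene of this list that fell was EZH2, the methyltransferase gene of Polycomb complex PRC2 (83.4 ± 5.7 to 69.4 ± 1.7 TPM). The falls numbered 2 without shCTSZ replicate 3 and with median-of-ratios scaling.

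Genes of the turnover of D-type cyclins and CDK inhibitors rose in 7 of 13 tested cases and none fell in the limma fit (median 0.23), and 0 were lower at an unadjusted p under 0.05. Those with the smallest p were subunits of SCF ubiquitin ligases and their partner: SKP1 (282 ± 8.2 to 371 ± 15 TPM, log2 difference 0.39, limma adjusted p = 0.000764), CKS1B (307 ± 5.3 to 359 ± 14 TPM, 0.22, adjusted p = 0.00469) and RBX1 (26.8 ± 1.5 to 33.4 ± 0.86 TPM, 0.30, adjusted p = 0.00726). CKS1B did not pass after the GC and length correction (0.12, adjusted p = 0.105; 0.00313 to 0.105 over its alternatives). AMBRA1, the receptor that directs D-type cyclins to degradation, rose from 9.49 ± 0.55 to 11.5 ± 0.74 TPM (adjusted p = 0.0417), and was named after its value was seen.

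**Figure D4:**
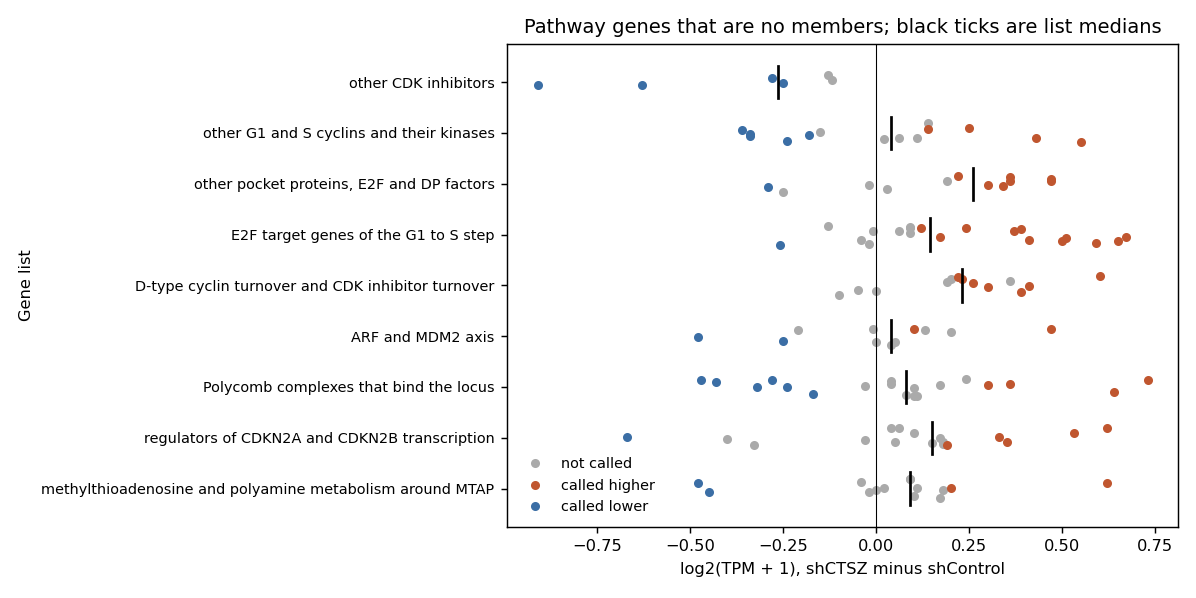
Differences in log2(TPM + 1), shCTSZ minus shControl, of the tested genes of 9 lists that hold no members. Each point is a gene, coloured by its call in the whole-table fit, and black ticks are list medians, from -0.26 for other CDK inhibitors to 0.26 for pocket proteins, E2F and DP factors.

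On the p14ARF side, 2 of 11 genes rose and 2 fell (median 0.04). TRIP12, a ubiquitin ligase gene of p14ARF, rose from 74.5 ± 9.5 to 103 ± 2.7 TPM (0.47, adjusted p = 0.00745). ZBTB17, the gene of MIZ1, a transcription factor that acts on CDKN2B, fell from 42.1 ± 0.89 to 35.3 ± 1.3 TPM (-0.25, adjusted p = 0.00802) and did not pass after the GC and length correction (-0.08, adjusted p = 0.22; 0.00555 to 0.22 over its alternatives). MDM2 was at 56.0 ± 8.9 and 63.9 ± 0.45 TPM and did not pass (adjusted p = 0.191). The rises numbered 1 without shControl replicate 2 or any 1 shCTSZ replicate, and 1 with no filter, median-of-ratios scaling, quantile normalisation, no mean-variance trend or the GC and length correction, where the falls numbered 1 too.

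Polycomb genes, whose complexes are known to silence the locus, went both ways, with 4 of 19 rising and 6 falling (median 0.08). RBBP4, a histone-binding subunit, rose from 75.2 ± 1.3 to 118 ± 6.0 TPM (0.64, limma adjusted p = 0.000266), and PHC3 rose from 5.62 ± 0.66 to 9.97 ± 1.1 TPM (0.73, adjusted p = 0.00345). PCGF2, also called MEL18, fell from 59.7 ± 1.2 to 42.9 ± 3.8 TPM (-0.47, adjusted p = 0.00275). BMI1, its relative and a classical repressor of CDKN2A, rose from 7.68 ± 0.75 to 10.1 ± 0.79 TPM (adjusted p = 0.0266) and was named after its value was seen. The falls numbered 2 after the GC and length correction. Among other regulators of CDKN2A and CDKN2B transcription, a list that holds activators and repressors, 5 of 17 tested rose and 1 fell (median 0.15). ID1, a repressor of CDKN2A, was the gene that fell, from 193 ± 14 to 121 ± 4.5 TPM (-0.67, adjusted p = 0.000504). SMAD4, which carries TGF-beta signals to CDKN2B, rose from 17.9 ± 2.1 to 27.9 ± 0.71 TPM (0.62, adjusted p = 0.00229) and ETS1, an activator of CDKN2A, from 104 ± 12 to 150.0 ± 9.8 TPM (0.53, adjusted p = 0.00559). Of the regulators 3 rose without shControl replicate 2 or 3 or without shCTSZ replicate 3, and 2 fell without shCTSZ replicate 2 or after the GC and length correction.

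Of 14 genes of methylthioadenosine and polyamine metabolism around MTAP, 2 rose and 2 fell (median 0.09). MAT2A, which makes S-adenosylmethionine, rose from 89.1 ± 5.6 to 138 ± 8.6 TPM (0.62, limma adjusted p = 0.000823). GOT1, an aminotransferase gene, fell from 184 ± 4.0 to 134 ± 3.9 TPM (-0.45, adjusted p = 0.000388) and SAT1, a polyamine acetylase gene, fell from 542 ± 12 to 389 ± 20 TPM (-0.48, adjusted p = 0.00048). PRMT5, the methyltransferase that methylthioadenosine inhibits, was at 186 ± 11 and 201 ± 14 TPM and did not pass (adjusted p = 0.219). The rises numbered 1 without shControl replicate 1 or 3, without shCTSZ replicate 1 or 3, with no filter, with median-of-ratios scaling and with no mean-variance trend.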

How the data were processed

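Cells had received lentiviral hairpins, and total RNA went into a SMARTer mRNA-seq preparation, per the labels' protocols. Per the submitters' processing notes, fastp, RSEM and GRCh38.p13 were used. For the aligner, the annotation release and the strand setting, nothing is given in the sources used here. What the authors deposited is a single TPM table. Each library has the same total, so depth cannot be known and a rise of some genes lowers others. GENCODE 29 supplied positions, and the RefSeq promoter table (GRCh38.p14) supplied sequences. The build of both is GRCh38, as in the submitters' notes.

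Genes averaging 1 TPM or more were fitted as log2(TPM + 1), which understates the change of low genes, with limma 3.58.1 in R 4.3.3 (group as the only term, mean-variance trend, Benjamini-Hochberg adjustment at 0.05). "Rose" and "fell" are used of genes past that threshold. On simulated data of the same 14874 genes, the fit recovered 56.9%, 74.4% and 92.4% of changes of 1.5-, 2- and 4-fold, and 3.98% of calls were false. The simulated noise was normal and independent between genes, and a far smaller share of genes was changed than the 34.5% called here. These rates therefore need not hold for the fit of the real libraries. The members and lists were chosen with earlier results of these data known. Genes named are the members, the kept 9p21 neighbours, up to 3 genes with the smallest adjusted p in each list, the 4 nearest profiles to CDKN2A-DT and to CDKN2A, and CTSZ; others are marked or are given as values only. Some genes that this rule names are not reported here. The alternatives were pseudocounts of 0.1 and 5, no filter, a minimum average of 5 TPM, scaling by median of ratios, by quantiles and without mitochondrial genes, no trend, a replicate block, each library left out, and a correction of every library for GC content and length (natural splines, 5 degrees of freedom each, 14324 genes). Tables and plots used Python 3.11.15, pandas 2.3.3 and matplotlib 3.10.9.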

Additional observations from a re-analysis of the deposited data

How the results depend on the processing

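Over 16 alternatives the genes called across the whole table ranged from 1981 to 3162 higher and from 1657 to 2468 lower, and the pathway genes outside the members from 31 to 43 higher and from 17 to 24 lower. Members higher without overlap numbered 5 or 6 under all of them, and CDKN2A-DT was lower under all of them, by -1.54 (pseudocount 5) to -2.69 (pseudocount 0.1) in log2. The log2 difference ran from 0.27 to 0.46 for CDKN2A and from 0.28 to 0.50 for MTAP, against 0.31 and 0.41 in the main fit. Members higher past the whole-table threshold numbered 3 to 5, against 4 in the main fit. Members lower past the whole-table threshold numbered 1 in place of 2 with no filter, without mitochondrially encoded genes, with no mean-variance trend, with the replicate block, and after the GC and length correction, and 1 to 2 on leaving out 1 library (1 without any of them but shControl replicate 3). Members lower without overlap numbered 1 after the GC and length correction, where 1 of the 9p21 neighbours was called higher and 1 lower. With no mean-variance trend 1 neighbour was called lower, and 1 to 2 were called higher on leaving out 1 library (1 without shCTSZ replicate 1 or 2). The causes of these shifts were not tested. At a mean of at least 5 TPM, CDKN2B and CDKN2B-AS1 were not tested.

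The replicate numbers of the 2 groups did not pair the libraries: deviations of same-numbered libraries correlated at -0.09, -0.02 and -0.04. With the number as a replicate block 2236 genes were called higher and 1790 lower, 35 and 20 of them among the pathway genes. The adjusted p of CDKN2C was then 0.0545, the fall among pocket proteins, E2F and DP factors (TFDP2) was lost, leaving 0, the regulators of CDKN2A and CDKN2B had 2 falls in place of 1, and the genes around MTAP had 1 rise in place of 2.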
